A study of Homo sapiens with 2 samples.

Results

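The nuclear genes for the proteins of the mitochondrial ribosome were followed in untreated parental THP-1 cells and in THP-1 cells resistant to cytarabine (Ara-C). They were taken as the protein-coding rows of the deposited gene table whose symbol is MRPL or MRPS, a number and at most 1 further letter. The rule also leaves out rows of chromosome 4 that start before position 57120000, which removed 0 rows. It gave 78 genes, 49 MRPL and 29 MRPS, among 30856 rows, and all 78 were among the 11388 genes that had a symbol and reached an FPKM of 1 in 1 or both libraries, called expressed below. FPKM is the number of fragments of a gene scaled by a gene length and by the depth of its library.

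THP-1 is an established human line from acute monocytic leukaemia, and cytarabine is a nucleoside analogue used against acute myeloid leukaemia. The resistant cells came from the same line by raising cytarabine stepwise from 5 nM to 10 µM, and were called resistant when they doubled as fast as untreated cells. Whether the drug was present at harvest is not given in the sources used here. Each condition had 1 poly(A) RNA library, the parental with 57434972 and the resistant with 58285463 counts, so every difference below compares those libraries and has no replicate check and no test between conditions. Of 14 marker genes of THP-1 and the monocytic lineage, 11 reached 1 FPKM, among them CEBPA, SPI1 and CD33, while CD14, MLLT3 and MEIS1 did not, MEIS1 being listed at 0 FPKM in both libraries. Of 8 measured markers of lymphoid, epithelial and stromal cells, 1 did, the natural killer cell marker NCAM1 at 5.47 and 5.98 FPKM, and CD2 had 0 counts in both libraries. Those 8 markers summed to 6.10 FPKM in parental and 6.69 FPKM in resistant cells. The 14 monocytic markers summed to 531 and 408 FPKM, with LYZ, the lysozyme gene, at 225 and 95.8 FPKM. The part of these marker differences in the results below was not tested. In bulk RNA, fewer cells of a type and less RNA per cell cannot be told apart.

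The mitochondrial ribosome translates the few proteins that the mitochondrial genome encodes, all of them subunits of the respiratory chain and the ATP synthase. Its ribosomal RNAs are transcribed inside the organelle, whereas all of its proteins are made from nuclear genes in the cytosol and imported. The MRPL genes encode proteins of the large subunit, which forms peptide bonds, and most MRPS genes encode proteins of the small subunit, which holds the messenger RNA. Many of these proteins descend from bacterial ribosomal proteins and others were added in the mitochondrial lineage.

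The 78 genes differed little between the libraries, and their typical difference was near that of other genes of like level. Unless counts are named, the log2 ratio below is log2((FPKM resistant + 1)/(FPKM parental + 1)), so that values above 0 are higher in resistant cells. Its median over the 78 genes was 0.04, with quartiles of -0.08 and 0.15 and a range from -0.39 to 0.40. Of the 78 genes, 44 lay above 0 and 34 below, where 46.3% of all expressed genes lay above 0, 53.3% lay below and their median was -0.02. No gene of the 78 differed by 1.5-fold or more, against 7.7% of the expressed genes, and none by 2-fold, against 1.86%. Among 7441 other protein-coding genes of the same range of mean level (2.86 to 88.3 FPKM), 4.99% were 1.5-fold or more apart and 46.2% lay above 0. The median absolute log2 ratio was 0.12 for the 78 genes, 0.14 for these other coding genes and 0.16 for all expressed genes. The 78 genes together took 0.412% of the parental and 0.426% of the resistant counts, a ratio of 1.04 (95% exact counting interval 1.03 to 1.04).

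The deposited counts allowed an interval for each gene. It is the exact 95% Clopper-Pearson interval of the ratio of counts per library total, and it covers counting error only, since read pairs without molecular identifiers are not independent molecules and there was no second culture. This interval lay above 1 for 31 of the 78 genes and below 1 for 23, and it held 1 for the other 24. Over all expressed genes it lay above 1 for 33.7% and below 1 for 39.1%, so at this depth the interval excluded 1 for most expressed genes. The genes had between 321 and 14575 counts per library, and the interval reached 0.03 to 0.21 on either side of the log2 ratio, with a median of 0.08.

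**Figure D1:**
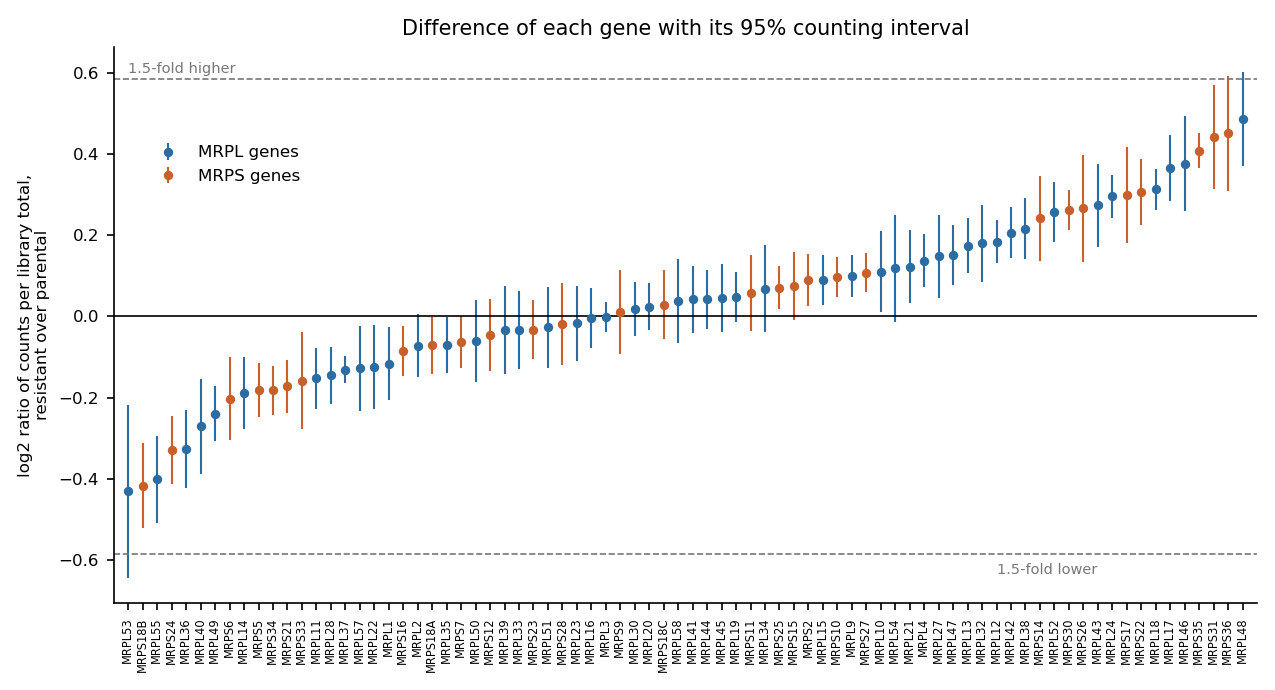
Each point is 1 of the 78 genes, placed on the vertical axis by the log2 ratio of its counts per library total (resistant over parental), with its 95% counting interval as a bar, in ascending order. Dashed lines mark 1.5-fold; no point lies beyond them, and the order runs from MRPL53 and MRPS18B to MRPS36 and MRPL48.

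The 8 genes with the highest ratio were MRPL48, MRPS35, MRPS36, MRPS31, MRPL17, MRPL18, MRPL24 and MRPL46. The 8 with the lowest were MRPS18B, MRPL53, MRPL55, MRPL36, MRPS24, MRPL40, MRPL49 and MRPL14. Large and small subunit genes stood at both ends. Because these genes carry the widest differences, the 100 bases before the start of the row are shown, 5′ to 3′ on the strand of the gene, for the 3 highest and 3 lowest genes whose stretch was in the reference windows and overlapped no row of the table. This passes over MRPS35 and MRPS36 among the highest genes. It also passes over several of the lowest genes and reaches MRPS21, at a log2 ratio of -0.17. They come from RefSeq's GRCh38.p14 and lie at chr11:73787772-73787871 (plus strand) for MRPL48, chr13:40771191-40771290 (minus) for MRPS31, chr11:6683341-6683440 (minus) for MRPL17, chr6:30617740-30617839 (plus) for MRPS18B, chr1:228109313-228109412 (minus) for MRPL55 and chr1:150293761-150293860 (plus) for MRPS21. Capitals mark matches, on either strand, to the short motifs described below.
MRPL48: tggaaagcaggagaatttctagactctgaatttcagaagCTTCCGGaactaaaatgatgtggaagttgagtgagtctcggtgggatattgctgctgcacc
MRPS31: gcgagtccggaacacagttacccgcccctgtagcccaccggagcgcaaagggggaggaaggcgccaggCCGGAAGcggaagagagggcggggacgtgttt
MRPL17: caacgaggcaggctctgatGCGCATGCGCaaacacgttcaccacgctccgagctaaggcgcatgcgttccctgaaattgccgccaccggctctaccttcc
MRPS18B: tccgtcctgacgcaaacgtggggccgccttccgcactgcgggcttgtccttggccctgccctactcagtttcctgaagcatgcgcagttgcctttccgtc
MRPL55: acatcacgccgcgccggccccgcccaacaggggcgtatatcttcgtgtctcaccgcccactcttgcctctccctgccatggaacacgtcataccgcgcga
MRPS21: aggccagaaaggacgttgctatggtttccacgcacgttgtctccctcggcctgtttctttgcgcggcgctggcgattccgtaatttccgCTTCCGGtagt
The capitals are an ETS motif in the MRPL48, MRPS31 and MRPS21 stretches and an NRF1 motif in that of MRPL17. The MRPS18B and MRPL55 stretches held no match. All 3 stretches of the highest genes thus held a match, and of the 3 lowest that of MRPS21 alone. In the longer windows searched below, MRPS18B held a YY1 motif and MRPS35 held none of the motifs. With 3 chosen genes at each end, a contrast between the highest and the lowest genes was not tested.

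The levels spanned more than an order of magnitude and largely kept their order between the libraries. In FPKM, the highest gene stood 34.4-fold above the lowest in parental cells and 30.3-fold in resistant cells. Across the 78 genes, log2 FPKM correlated between the libraries with a Pearson's r of 0.98 and a Spearman's rho of 0.98, genes not being independent replicates. In the parental library 54 of the 78 genes reached 10 FPKM. MRPL37, MRPL12, MRPS34 and MRPL3 led, and MRPL46, MRPS33 and MRPL42 stood last.

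**Figure D2:**
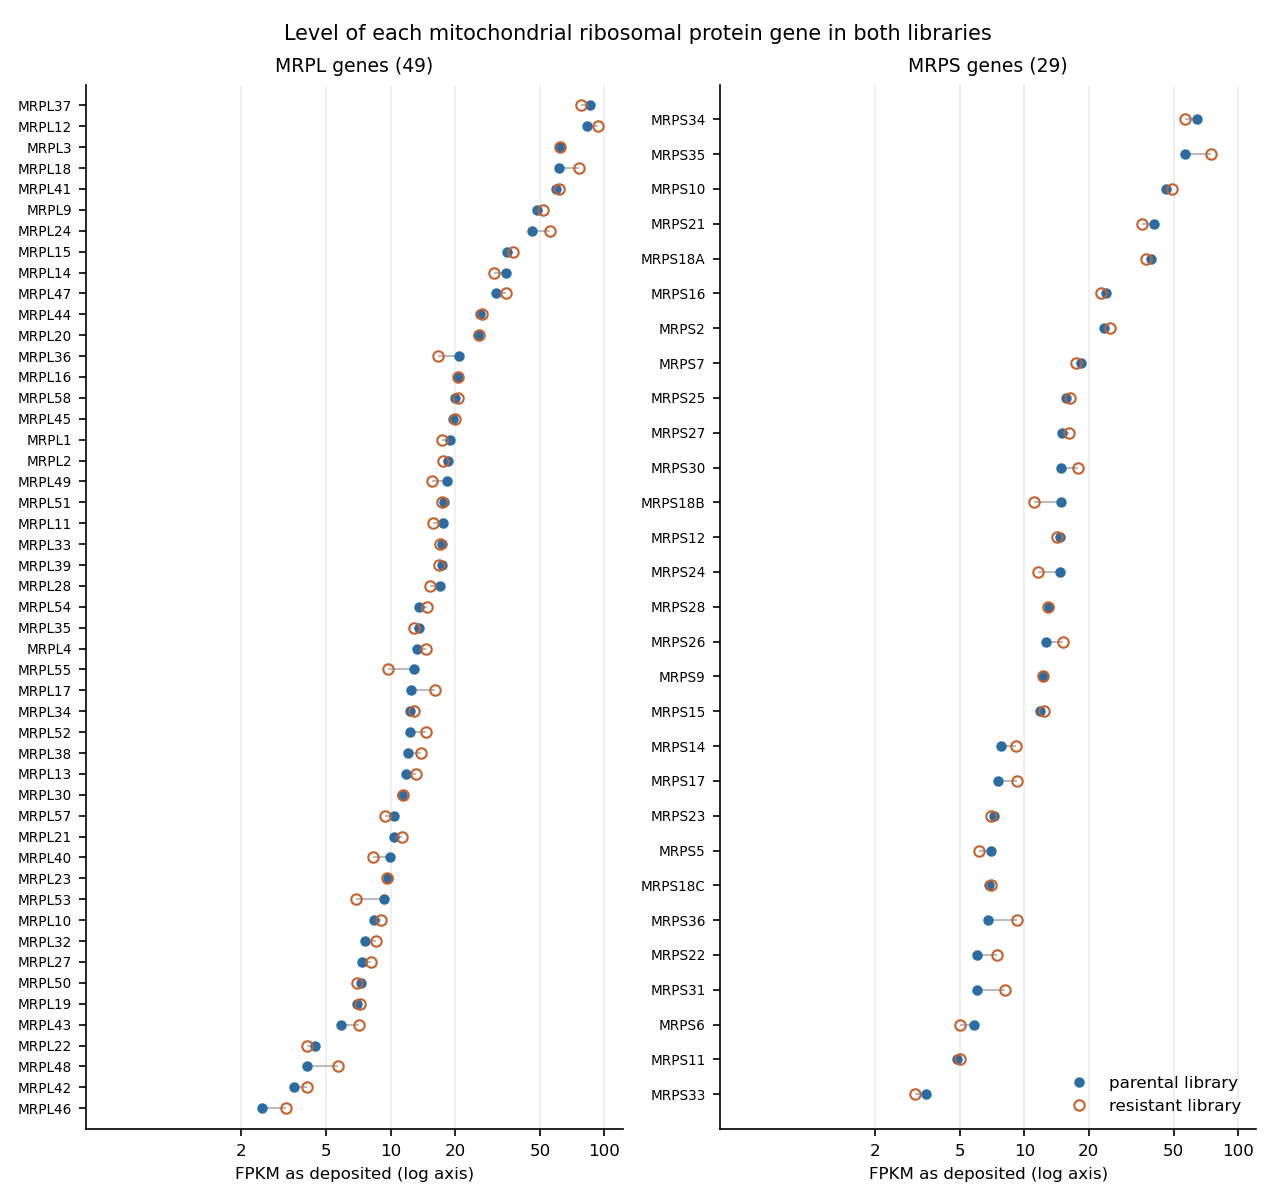
Deposited FPKM (log axis) of the 49 MRPL genes (left) and the 29 MRPS genes (right) in the parental (filled) and the resistant library (open), ordered by the parental value. The spread between genes, from 2.49 to 85.8 FPKM in parental cells, is far wider than the distance between the libraries for any 1 gene.

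This order depended on the length that counts are divided by. The length implied by the deposited counts and FPKM was 1.16 times the length of all annotated exons of the gene (median over the 78 genes), and for 55 of them it lay within 2% of that median, so the deposited FPKM divides by about the union of all exons. These unions ran from 959 to 16393 bases (median 2539), whereas the coding transcripts ran from 527 to 5621 (median 1379). FPKM fell with the union length across the 78 genes (Spearman's rho -0.61), and counts per kilobase of coding transcript did so less (rho -0.12). The rank correlation of both measures was 0.62, and 24 genes differed by more than 20 ranks. MRPL42, at 3.52 FPKM, ranked 76 by FPKM and 5 per coding transcript (95.5 in counts per kilobase, scaled to depth as CPM), its exons covering 16393 bases against a transcript of 701. MRPL37 and MRPL3 stood first and second per coding transcript, and MRPS33 and MRPL53 last. Levels below are FPKM as deposited and are compared between libraries, not between genes.

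**Figure D3:**
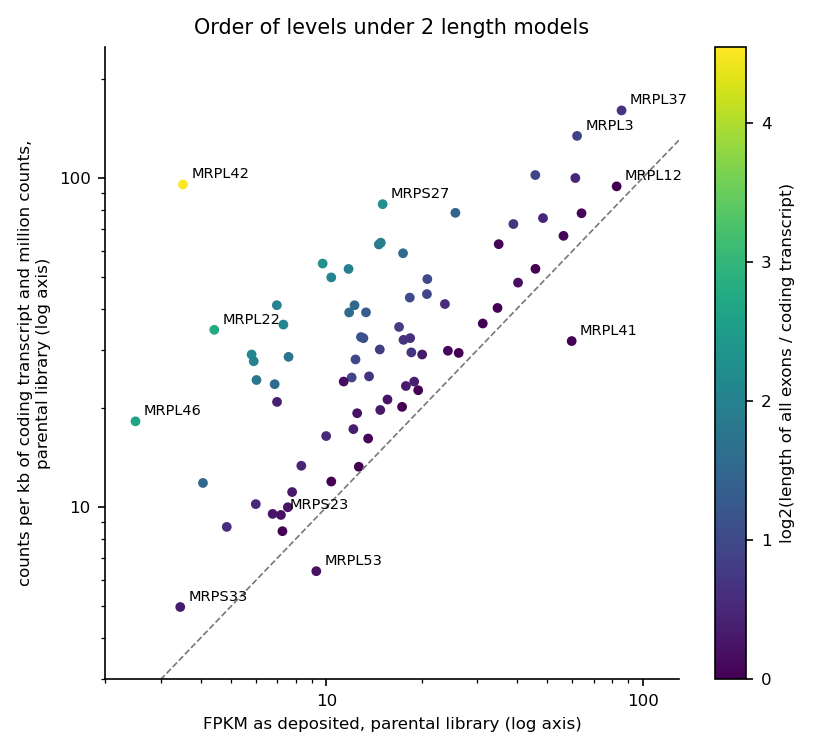
Parental level of each of the 78 genes as deposited FPKM (horizontal, log axis) and as CPM per kilobase of coding transcript (vertical, log axis). The dashed line marks equal values and colour gives the log2 ratio of all-exon to coding transcript length; MRPL42 lies at 3.52 against 95.5.

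Proteins that line or ring the exit of the peptide tunnel come next to the inner membrane, where the new chain is inserted. Of 7 such genes, 5 lay above 0 and 2 below, with a median of 0.04. MRPL17 (ENSG00000158042, chr11:6680385-6683340, minus strand) was at 12.5 FPKM in parental and 16.1 FPKM in resistant cells, from 2180 and 2850 counts, a ratio of counts per library total of 1.29 (1.22 to 1.36). MRPL24 (ENSG00000143314, chr1:156737303-156741590, minus strand) was at 45.8 FPKM in parental and 56.0 FPKM in resistant cells, from 5175 and 6445 counts, a ratio of 1.23 (1.18 to 1.27). Both were higher in the resistant library by more than counting error. MRPL45, which anchors the ribosome to the membrane, was at 19.5 and 20.1 FPKM in parental and resistant cells, and MRPL44, a protein with a ribonuclease III fold, at 26.2 and 26.9. MRPL47 was at 31.2 and 34.6 FPKM and MRPL23 at 9.73 and 9.59. MRPL22, whose bacterial relative reaches into the tunnel, was at 4.42 and 4.05, and was the lowest of the 7 by ratio (-0.10).

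The central protuberance is the crown of the large subunit, which faces the head of the small subunit. In the mitochondrial ribosome it is rebuilt with proteins that bacteria lack. Of 6 genes listed for it here, 5 lay above 0 and 1 below, with a median of 0.24. The list may leave out other proteins of this place, and the median depends on the listing. MRPL48 (ENSG00000175581, chr11:73787872-73865133, plus strand) was at 4.07 FPKM in parental and 5.69 FPKM in resistant cells, from 1044 and 1483 counts, a ratio of 1.40 (1.29 to 1.52), the highest of the 78 genes. MRPL18 (ENSG00000112110, chr6:159789812-159798436, plus strand), whose bacterial counterpart binds the 5S ribosomal RNA, was at 61.3 FPKM in parental and 75.9 FPKM in resistant cells, from 5614 and 7077 counts, a ratio of 1.24 (1.20 to 1.29). MRPL46 (ENSG00000259494, chr15:88459477-88467389, minus strand) was at 2.49 FPKM in parental and 3.23 FPKM in resistant cells, from 1066 and 1404 counts, a ratio of 1.30 (1.20 to 1.41). MRPL40 went the other way. MRPL40 (ENSG00000185608, chr22:19431902-19436075, plus strand) was at 9.98 FPKM in parental and 8.25 FPKM in resistant cells, from 1309 and 1101 counts, a ratio of 0.829 (0.764 to 0.899). MRPL38 was at 12.02 and 13.93 FPKM in parental and resistant cells, and MRPL27, whose bacterial relative reaches the peptidyl transferase centre, at 7.31 and 8.08. The counting interval lay above 1 for 5 of these 6 genes and below 1 for MRPL40, where it did so for 33.7% and 39.1% of all expressed genes. With 6 genes, and MRPL46 and MRPL38 sharing their strand with another row, the median is a description of these libraries.

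The stalks are the flexible arms of the large subunit that recruit translation factors and release spent transfer RNA. Of the 3 genes of the factor-binding stalk and its base, 2 lay above 0 and 1 below. MRPL12, the stalk protein that exists in several copies per ribosome, was at 82.8 and 93.8 FPKM in parental and resistant cells. MRPL10, which tethers it, was at 8.33 and 8.98, and MRPL11, at the stalk base, at 17.5 and 15.7. On the opposite side, MRPL1 of the other stalk was at 18.9 and 17.4 FPKM. The interval lay above 1 for MRPL12 and MRPL10 and below 1 for MRPL11 and MRPL1.

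The remaining MRPL genes with a bacterial counterpart form the core of the large subunit. Around the peptidyl transferase centre, MRPL2 was at 18.6 and 17.6 FPKM in parental and resistant cells, MRPL3 at 62.0 and 61.8 and MRPL16 at 20.8 and 20.7. Elsewhere, MRPL4 was at 13.3 and 14.6 FPKM and MRPL9 at 48.4 and 51.7. MRPL13 was at 11.8 and 13.2 FPKM, MRPL15 at 35.1 and 37.2 and MRPL19 at 6.98 and 7.20. None of these 8 was more than 0.16 from 0 on the log2 scale. MRPL14 (ENSG00000180992, chr6:44113451-44127452, minus strand), which faces the small subunit, was at 34.8 FPKM in parental and 30.4 FPKM in resistant cells, from 2218 and 1975 counts, a ratio of 0.877 (0.825 to 0.933). MRPL36 (ENSG00000171421, chr5:1798385-1801366, minus strand), the counterpart of the smallest bacterial ribosomal protein, was at 20.9 FPKM in parental and 16.6 FPKM in resistant cells, from 1942 and 1572 counts, a ratio of 0.798 (0.746 to 0.853). These 2 were the lowest of the bacterial-type MRPL genes. MRPL20, an early binder of ribosomal RNA in bacteria, was at 25.6 and 25.9 FPKM in parental and resistant cells, MRPL21 at 10.4 and 11.2 and MRPL28 at 17.0 and 15.3. MRPL30 was at 11.3 and 11.5, MRPL32, which is trimmed by an inner membrane protease before assembly, at 7.59 and 8.57, and MRPL33 at 17.5 and 17.0. MRPL34 was at 12.4 and 12.9 and MRPL35 at 13.6 and 12.9. Of these 8, MRPL28 and MRPL35 had an interval below 1 and MRPL21 and MRPL32 one above 1.

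The other MRPL genes, apart from MRPL55, which was not classed, were listed as having no bacterial counterpart. MRPL53 (ENSG00000204822, chr2:74471982-74472687, minus strand) was at 9.29 FPKM in parental and 6.88 FPKM in resistant cells, from 426 and 321 counts, a ratio of 0.743 (0.640 to 0.860). MRPL55 (ENSG00000162910, chr1:228106679-228109312, minus strand) was at 12.9 FPKM in parental and 9.71 FPKM in resistant cells, from 1630 and 1253 counts, a ratio of 0.757 (0.703 to 0.816). MRPL49 (ENSG00000149792, chr11:65122183-65127371, plus strand) was at 18.4 FPKM in parental and 15.6 FPKM in resistant cells, from 3781 and 3250 counts, a ratio of 0.847 (0.808 to 0.888). All 3 were lower in the resistant library, and MRPL53 rests on the fewest counts of all 78 genes and shares its strand with CCDC142. MRPL37, the gene with the highest FPKM in parental cells, was at 85.8 and 78.1 in parental and resistant cells, MRPL39 at 17.4 and 16.9 and MRPL41 at 59.6 and 61.2. MRPL42 was at 3.52 and 4.05 FPKM, MRPL43 at 5.89 and 7.11, MRPL50 at 7.26 and 6.95 and MRPL51 at 17.8 and 17.4. MRPL52 was at 12.3 and 14.6, MRPL54 at 13.6 and 14.8 and MRPL57 at 10.4 and 9.45. MRPL58, a peptidyl-tRNA hydrolase that became a fixed part of the ribosome, was at 20.1 and 20.6 and its interval held 1. MRPL43 and MRPL52 were the highest of this group by log2 ratio (0.24 and 0.24). Over the 44 genes listed with a direct bacterial counterpart (of the MRPS18 paralogs, MRPS18C alone) the median log2 ratio was 0.02, with 25 above 0 and 19 below, and over 31 listed without one it was 0.04, with 18 above and 13 below. MRPL55, MRPS28 and MRPS36 were in neither list.

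Among the 29 MRPS genes, 16 lay above 0 and 13 below, with a median of 0.02, against 28, 21 and 0.04 for the MRPL genes. Without MRPS18A and MRPS30, whose proteins sit in the large subunit, 15 lay above 0 and 12 below. These still include MRPS36, at a log2 ratio of 0.40, whose product is described below as part of another complex. Along the path of the messenger RNA, MRPS12, whose bacterial relative sets decoding accuracy, was at 14.8 and 14.2 FPKM in parental and resistant cells. MRPS5 was at 6.97 and 6.13. MRPS24 (ENSG00000062582, chr7:43866558-43869893, minus strand) was at 14.7 FPKM in parental and 11.6 FPKM in resistant cells, from 2549 and 2060 counts, a ratio of 0.796 (0.751 to 0.844). The counting interval of MRPS24 lay below 1. In the head of the subunit, MRPS7 was at 18.4 and 17.5 FPKM in parental and resistant cells, MRPS9 at 12.2 and 12.2, MRPS10 at 45.8 and 48.9 and MRPS14 at 7.79 and 9.18. MRPS2 was at 23.7 and 25.2, MRPS6 at 5.80 and 5.02, MRPS11 at 4.84 and 5.02 and MRPS15 at 11.8 and 12.4. MRPS16 was at 24.2 and 22.8, MRPS17 at 7.55 and 9.27 and MRPS21 at 40.4 and 35.7. Of these 11, MRPS2, MRPS10, MRPS14 and MRPS17 had an interval above 1, and MRPS6, MRPS7, MRPS16 and MRPS21 one below 1.

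The remaining MRPS genes included 3 of the 4 highest ratios. MRPS35 (ENSG00000061794, chr12:27710822-27756295, plus strand) was at 56.2 FPKM in parental and 74.4 FPKM in resistant cells, from 7232 and 9739 counts, a ratio of 1.33 (1.29 to 1.37). MRPS31 (ENSG00000102738, chr13:40729128-40771190, minus strand) was at 5.98 FPKM in parental and 8.09 FPKM in resistant cells, from 857 and 1181 counts, a ratio of 1.36 (1.24 to 1.48). MRPS36 (ENSG00000134056, chr5:69217760-69230158, plus strand), whose product is now known as a subunit of the mitochondrial 2-oxoglutarate dehydrogenase complex, was at 6.76 FPKM in parental and 9.22 FPKM in resistant cells, from 704 and 976 counts, a ratio of 1.37 (1.24 to 1.51). All 3 had intervals well above 1, and MRPS35 alone was above 10 FPKM. MRPS22 was at 6.01 and 7.41 FPKM in parental and resistant cells, MRPS23 at 7.18 and 7.00, MRPS25 at 15.6 and 16.3 and MRPS26 at 12.7 and 15.2. MRPS27, a pentatricopeptide repeat protein, was at 15.1 and 16.2, MRPS28 at 13.1 and 12.9, MRPS33 at 3.45 and 3.09 and MRPS34 at 64.1 and 56.3. MRPS22, MRPS25, MRPS26 and MRPS27 were higher and MRPS33 and MRPS34 lower by more than counting error. MRPS30 is named for the small subunit but sits in the large one, and was at 14.9 and 17.8 FPKM with an interval above 1.

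MRPS18 exists as 3 paralogs, all related to 1 bacterial protein. MRPS18A is built into the large subunit, MRPS18B and MRPS18C into different places of the small one. MRPS18B (ENSG00000204568, chr6:30617840-30626395, plus strand) was at 14.8 FPKM in parental and 11.1 FPKM in resistant cells, from 1735 and 1319 counts, a ratio of 0.749 (0.697 to 0.805), and had the lowest log2 ratio of the 78 genes. MRPS18A (ENSG00000096080, chr6:43671303-43687791, minus strand) was at 39.0 FPKM in parental and 37.0 FPKM in resistant cells, from 3341 and 3227 counts, a ratio of 0.952 (0.907 to 0.999). MRPS18C (ENSG00000163319, chr4:83455932-83462298, plus strand) was at 6.86 FPKM in parental and 6.98 FPKM in resistant cells, from 2229 and 2308 counts, a ratio of 1.02 (0.962 to 1.08). Summed counts of the paralogs stood at a ratio of 0.925 (0.894 to 0.956). The counting interval of MRPS18B did not overlap those of its paralogs. By the table's own gene ontology terms, 49 of the 78 genes were annotated to the large and 27 to the small mitochondrial subunit, 2 of them (MRPL42 and MRPS18A) to both and 4 (MRPL1, MRPL45, MRPS23 and MRPS25) to neither.

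The other parts of the mitochondrial translation apparatus were also close between the libraries. Of the 5 mitoribosomal proteins that carry other names, all 5 lay above 0, with a median of 0.10. GADD45GIP1, a large subunit protein, was at 25.5 and 28.3 FPKM in parental and resistant cells, and DAP3, a GTP-binding small subunit protein, at 53.4 and 58.1. PTCD3, which sits where the messenger RNA enters, was at 9.88 and 10.6, AURKAIP1 at 39.5 and 41.0 and CHCHD1 at 14.0 and 14.2. The interval lay above 1 for GADD45GIP1, DAP3 and PTCD3, against 33.7% of all expressed genes, and held 1 for the other 2. The 28 assembly factors had a median of 0.04, with 16 above 0 and 12 below. The widest were TFB1M, a methyltransferase of the small ribosomal RNA, at 3.18 and 4.09 FPKM, METTL17 at 18.4 and 15.3 and the GTPase MTG2 at 5.38 and 4.49. The 14 translation factors had a median of 0.04, with 9 above 0 and 5 below. PDF, the peptide deformylase, was at 2.82 and 3.63 FPKM, the elongation factor TSFM at 8.56 and 7.23 and C12orf65, a release factor family member, at 1.28 and 1.62. No gene of these 3 lists was 1.5-fold apart, against 7.7% of all expressed genes.

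Mitochondrial aminoacyl-tRNA synthetases and the genes that make or process mitochondrial RNA were also measured. The 20 genes of the first list, which includes subunits of the glutamyl-tRNA amidotransferase, had a median of -0.05, with 6 above 0 and 14 below. CARS2, for cysteine, was at 6.90 and 11.4 FPKM in parental and resistant cells, a ratio of counts per library total of 1.66 (1.60 to 1.72). It was the only one of the 20 past 1.5-fold on the FPKM + 1 scale, against 7.7% of all expressed genes. FARS2, for phenylalanine, was at 2.06 and 1.37 FPKM and WARS2, for tryptophan, at 3.55 and 4.69. On counts per library total FARS2 stood at 0.664 (0.588 to 0.749), since the pseudocount of 1 FPKM shrinks low genes. The 23 mitochondrial RNA genes had a median of 0.04, with 13 above 0 and 10 below. POLRMT, the mitochondrial RNA polymerase, was at 10.2 and 12.4 FPKM, PTCD2 at 1.79 and 1.35 and FASTKD3 at 9.42 and 8.25. Of 12 regulators of mitochondrial biogenesis and ribosome synthesis, 7 lay above 0 and 5 below, with a median of 0.01. MAX was at 9.77 and 7.88 FPKM, its partner MYC at 40.6 and 45.9, and GABPA, an ETS factor of many mitochondrial genes, at 8.28 and 7.13.

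The ribosomal RNAs of the mitochondrial ribosome were higher in the resistant library by more than counting error. MT-RNR2, the large ribosomal RNA, was at 2758 FPKM in parental and 3700 FPKM in resistant cells, a ratio of 1.35 (1.34 to 1.35). MT-RNR1, the small one, was at 477 and 623 FPKM, a ratio of 1.31 (1.29 to 1.33). Both are read here from poly(A)-selected libraries, which capture ribosomal RNA only in part. The 13 messenger RNAs of the mitochondrial genome had a median log2 ratio of -0.09, with 1 above 0 and 12 below. The 75 nuclear genes listed for the respiratory chain and the ATP synthase, its inhibitor included, had a median of -0.05, with 29 above 0 and 46 below. Among them NDUFA13 was at 20.7 and 11.7 FPKM, the only one of the 75 past 1.5-fold, against 7.7% of all expressed genes. ATP5IF1, the ATP synthase inhibitor, was at 16.1 and 11.6 FPKM and SDHA at 25.9 and 19.3.

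The cytosolic ribosome, which makes all nuclear-encoded proteins, gave a list of the same size. Of 78 cytosolic ribosomal protein genes, 76 lay above 0, with a median of 0.18, against 44 and a median of 0.04 for the 78 mitochondrial ones. Their interval lay above 1 for 74 genes, against 31, and for 33.7% of all expressed genes. The interval narrows as counts rise, and the cytosolic list held 3347624 parental counts against 236423. The numbers 74 and 31 therefore also reflect depth. The cytosolic genes took 5.83% of the parental and 6.59% of the resistant counts, a ratio of 1.13. RPL27A was at 77.9 and 109 FPKM in parental and resistant cells, RPS10 at 329 and 237 and RPS12 at 814 and 1076. None of the 78 cytosolic genes was 1.5-fold apart, against 7.7% of all expressed genes. With 1 library per condition the difference between the lists was not tested.

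**Figure D4:**
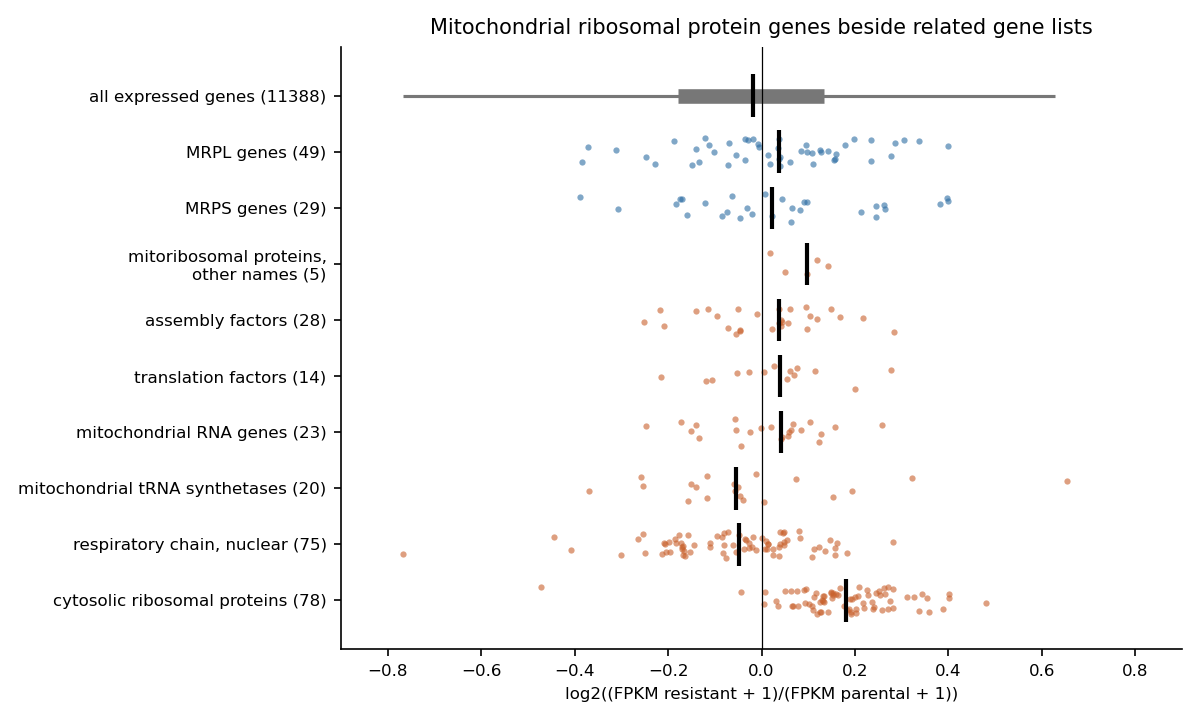
log2 ratio of every expressed gene of each list (points; black bars are medians), with all 11388 expressed genes as a thick line over the quartiles and a thin line over the central 95%. The MRPL and MRPS genes spread around medians of 0.04 and 0.02, while 76 of the 78 cytosolic ribosomal protein genes lie above 0.

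Reads of some of these genes can be shared with other rows. Of the 78 genes, 17 overlap another row on the same strand, 26 a row on the other strand only, and 35 none. The libraries keep the strand of origin, but the strand setting of the counting is not given in the sources used here. For the 17, counts of the gene and of the rows overlapping it were summed as an alternative chosen after seeing the data. MRPL53 overlaps CCDC142, which had 1540 parental and 1762 resistant counts. Its own log2 ratio of counts was -0.43 and that of the sum 0.06, so its low ratio does not hold for the locus. MRPS17 overlaps NIPSNAP2, and its 0.30 became -0.02. In both cases the other row held most of the counts of the sum. MRPL12 overlaps a coding row named only by its clone, with 543 parental and 0 resistant counts, and its 0.18 became 0.05. MRPS6 overlaps the transporter gene SLC5A3, and its -0.20 became -0.43. MRPL28 with PGAP6 moved from -0.15 to -0.22 and MRPS5 with ZNF514 from -0.18 to -0.24. These 3 lay further below 0 with the sum than alone. MRPL38 moved from 0.22 to 0.11 and MRPL46 from 0.38 to 0.29. MRPS28 moved from -0.02 to 0.04, and the other 8 changed by no more than 0.02. How the authors divided reads in such overlaps is not given in the sources used here.

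Other genes begin next to these genes on the opposite strand and share their start region. Within 1 kb of the start, 13 of the 78 had a divergent expressed partner outside the list, and MRPL46 and MRPS11 are partners of each other, 64 bases apart. Of the 13 pairs, 7 had ratios of the same sign and 6 of opposite sign. The stretches between the starts of 7 pairs are shown because each is the whole stretch that separates both genes, and partners across it did not always share a direction. They are read 5′ to 3′ on the strand of the first gene from RefSeq's GRCh38.p14, at chr17:50373197-50373219 (minus strand) for MRPL27, chr11:65122154-65122182 (plus) for MRPL49, chr3:179604641-179604689 (minus) for MRPL47, chr15:88467390-88467452 (minus) for MRPL46, chr6:159789704-159789811 (plus) for MRPL18, chr4:83455824-83455931 (plus) for MRPS18C and chr2:99181035-99181151 (plus) for MRPL30. Capitals mark motif matches as above.
MRPL27 and EME1: gatagcggaagtagaaacttttc
MRPL49 and FAU: agtacagaccgtgggctgcgtgtcacgtc
MRPL47 and NDUFB5: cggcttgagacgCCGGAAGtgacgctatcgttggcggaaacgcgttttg
MRPL46 and MRPS11: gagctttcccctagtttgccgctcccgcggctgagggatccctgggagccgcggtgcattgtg
MRPL18 and TCP1: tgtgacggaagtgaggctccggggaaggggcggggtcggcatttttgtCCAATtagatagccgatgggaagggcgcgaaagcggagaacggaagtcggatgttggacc
MRPS18C and HELQ: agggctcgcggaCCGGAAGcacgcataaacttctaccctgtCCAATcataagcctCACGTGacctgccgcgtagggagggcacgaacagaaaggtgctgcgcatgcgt
MRPL30 and MITD1: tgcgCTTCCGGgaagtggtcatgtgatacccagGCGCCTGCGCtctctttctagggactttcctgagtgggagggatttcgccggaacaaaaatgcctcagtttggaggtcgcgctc
MRPL27 starts 24 bases from EME1, an endonuclease subunit, and their log2 ratios were 0.13 and -0.32. MRPL49 starts 30 bases from FAU, which encodes a cytosolic ribosomal protein, with -0.23 and 0.05. MRPL36 starts 41 bases from NDUFS6, a complex I subunit, with -0.31 and 0.01. In these 3 pairs the partners lay on opposite sides of 0. MRPL47 and the complex I gene NDUFB5, 50 bases apart, were at 0.14 and 0.12. MRPL18 and the chaperonin gene TCP1, 109 bases apart, were at 0.31 and 0.19. MRPL46 and MRPS11 were at 0.28 and 0.04. All 6 of these genes lay above 0. MRPS18C and HELQ, also 109 bases apart, were both at 0.02 to 0.03, and MRPL30 and MITD1, 118 bases apart, at 0.01 and 0.04. MRPL21 and IGHMBP2 (31 bases), MRPL57 and SKA3 (107 bases) and MRPL50 and ZNF189 (255 bases) also shared a sign. MRPL32 and PSMA2 (191 bases), MRPS18B and PPP1R10 (596 bases) and MRPL54 and APBA3 (990 bases) did not. The median was 0.02 for the genes and 0.03 for their partners.

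**Figure D5:**
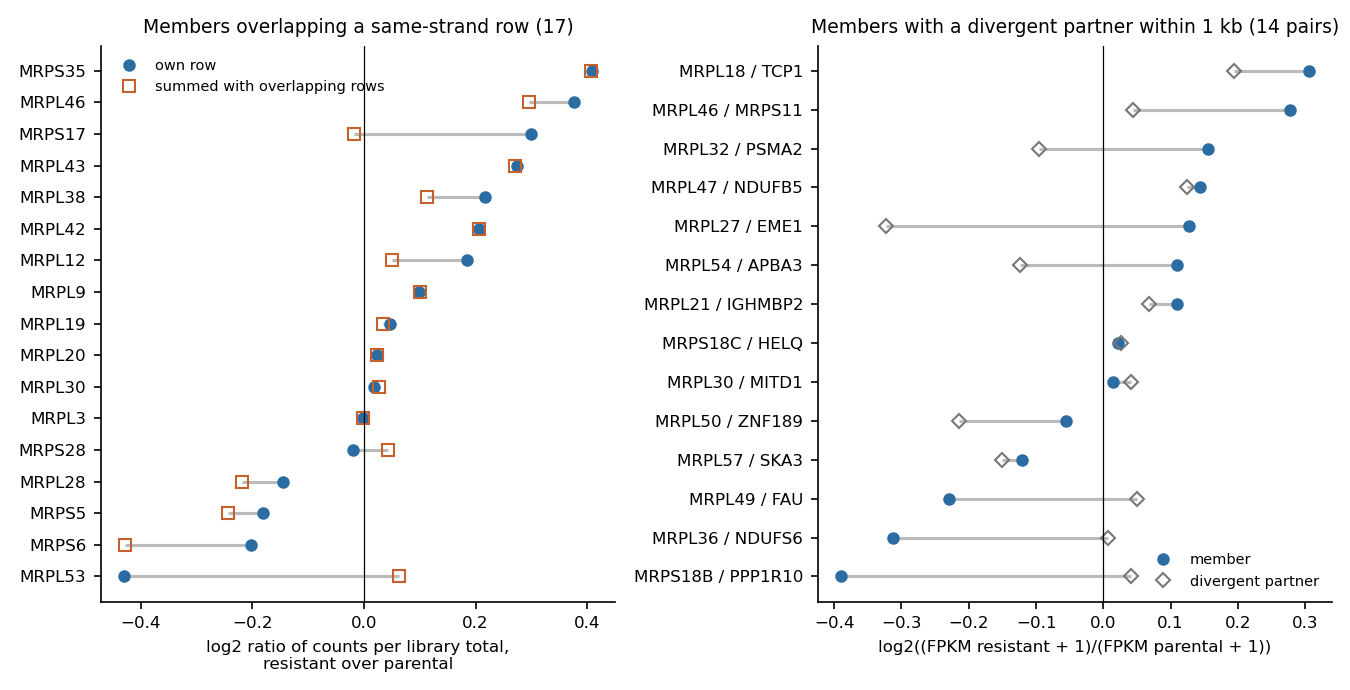
Left, the 17 genes that overlap a same-strand row, with the log2 ratio of counts per library total of their own row (filled) and of the summed locus (open squares). Right, 14 divergent pairs with the log2 ratio of FPKM + 1 of the gene (filled) and of its partner (diamonds); MRPL53, MRPS17 and MRPS28 cross 0 on the left, and MRPL49 and MRPL36 lie below partners near 0 on the right.

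The genes lie on 21 chromosomes. The median log2 ratio of the 15 nearest expressed genes outside the list ran from -0.30 to 0.31, and it had the sign of the gene itself for 39 of 78. Across the 78 genes it correlated with the ratio of the gene itself with a Pearson's r of 0.26 and a Spearman's rho of 0.19. Genes on the same chromosome share neighbours, so the points are not independent. For MRPS18B the neighbours stood at -0.30, for MRPL14 at -0.18, for MRPS35 at 0.31 and for MRPL17 at 0.30, each on the side of the gene itself. MRPL23, at -0.02, had neighbours at 0.26, and MRPS2, at 0.08, also at 0.26. MRPL17 and MRPL23 lie in the stretch of chromosome 11 from its start to DEPDC7, where 127 expressed genes had a median of 0.26. MRPL48, MRPS36 and MRPS31 had neighbours at -0.05, -0.01 and -0.08.

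RefSeq's windows of 300 bases (250 before to 50 after each gene start, GRCh38.p14) were given for 69 of the 78 genes and were searched on both strands. The windows of MRPL2, MRPL10, MRPL13, MRPL15, MRPL21, MRPL23, MRPL35, MRPS28 and MRPS36 were not used here. The ETS motif CCGGAAG, bound by GABPA among others, was in 30 of the 69 genes (43.5%) and in 25.0% of 8354 expressed coding genes. A gene counts here if any of its windows holds the motif. By window it was in 33 of 85 (38.8%), against 10.3% of all 35116 windows. The YY1 motif AAGATGGCG was in 13 genes (18.8%), against 5.20%, and by window in 15.3%, against 1.75%. The motif of NRF1, a regulator of nuclear genes for mitochondrial proteins, was in 9 genes (13.0%), against 14.3%. By window it was in 11.8%, against 5.78%. The E-box CACGTG, a MYC and MAX site, was in 9 genes (13.0%), against 13.0%, and by window in 10.6%, against 7.26%. The CCAAT box, searched as ATTGG, was in 23 genes (33.3%), against 43.3%, and by window in 32.9%, against 34.6%. The last bases of the ETS motif equal the first of the YY1 motif; 4 genes (MRPL38, MRPL52, MRPS10 and MRPS18A) held both, and 0 held them fused. Of the 69 genes, 15 held none of the 5 motifs.

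The log2 ratio was also compared between genes with and without each motif. Genes with the ETS motif had a median log2 ratio of 0.02 and those without it 0.04. For YY1 the medians were 0.09 and 0.03, for NRF1 0.01 and 0.04, and for the CCAAT box 0.04 and 0.02. The 9 genes with an E-box (MRPL14, MRPL22, MRPL36, MRPL37, MRPL45, MRPL49, MRPS2, MRPS18C and MRPS33) had a median of -0.12 against 0.04 for the 60 without. Of the 9, 3 lay above 0, and of the 60, 36. These are descriptions of 69 genes in 2 libraries and were not tested, and a match is no evidence of binding.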

How the data were processed

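Poly(A) RNA was sequenced as read pairs from 1 parental and 1 cytarabine-resistant library, with a dUTP second strand that keeps the strand of origin, per the labels' protocols. The authors deposited 1 table of 30856 Ensembl gene rows with FPKM values (scaled to a gene length and to depth) and whole-number counts. The tools named in the submitters' processing notes are DESeq2, edgeR, StringTie 1.3.4d, HISAT2 2.0.4 and cutadapt 1.9, on GRCh38, and the notes give them no order. How multi-mapping and overlapping reads were counted, whether strand was used, and which annotation release, are not given in the sources used here. The deposited counts were used unchanged. A suffix on the resistant count column has no explanation in the labels.

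From the deposited FPKM, log2 ratios were computed after adding 1 FPKM, so differences of low genes are understated, and expressed genes had an FPKM of at least 1 in 1 or both libraries. The counts gave ratios per library total with exact 95% Clopper-Pearson intervals. With 1 library per condition there is no test and no p-value, and genes were counted by 1.5-fold and 2-fold rules. The counting intervals, the log2 ratio and the fold rules were tested on simulated counts that held counting error only. The other steps were not tested in this way. The members and lists were chosen with earlier results of these data known. Every member is named with its level, the 8 highest and 8 lowest and the MRPS18 paralogs with counts, and of every other list the 3 genes with the widest ratios; the overlapping and divergent genes and the genes with each motif were named after their values were seen. Exon lengths came from GENCODE for GRCh38, start windows and sequences from RefSeq's GRCh38.p14, and coordinates are those of the deposited table. Alternatives covered the pseudocount, the filter, scaling with edgeR 4.0.16 (TMM) and DESeq2 1.42.0 (size factors), and leaving out overlapping members. Python 3.11.15, pandas 2.3.3, scipy 1.17.1 and R 4.3.3 were used.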

Additional observations from a re-analysis of the deposited data

How the results depend on the processing

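Each condition had 1 library, so no replicate could be left out. No paired analysis was possible because each group holds a single sample. The median log2 ratio of the 78 genes ran from 0.03 (pseudocount of 5 FPKM) to 0.07 (counts scaled by TMM), and was 0.03 without the members that overlap a same-strand row and 0.04 without those on chromosome 11 from its start to DEPDC7. The number of members 1.5-fold or 2-fold apart was 0 under each of the 8 alternatives for which it was counted. With a filter of at least 5 FPKM 74 of the 78 were counted, and a filter could not raise that number from 0. Across 5 scalings, 44 members lay above 0 and 29 below under each. The sign of 5 (MRPL3, MRPL16, MRPL23, MRPL51 and MRPS28) depended on the scaling, all within 0.03 of 0 as reported. Every alternative scaling moved the median of all expressed genes upward, by 0.001 to 0.03. Members above 0 were therefore bound to stay there, and all 5 changes of sign went from below to above 0. The number of members above 0, 44 as reported, ran from 42 with the 5 FPKM filter to 49 with TMM. List medians moved by less than the median counting error of a gene of the list, except that of the cytosolic ribosomal proteins. Theirs, 0.18 as reported, was 0.21 with TMM and 0.21 with DESeq2 size factors. The DESeq2 size factor was 1 for both libraries, so that setting compares the counts without a correction for library total. Of 856 values for single genes, 803 moved by no more than their counting interval reaches on either side, and 53 by more. The 803 include values that could not have counted as moved, because a filter leaves a gene's own ratio unchanged. Centring on the median of all expressed genes adds only 0.02 to each ratio. Summing overlapping rows, chosen after seeing the data, turned MRPL53 from -0.43 to 0.06 and MRPS17 from 0.30 to -0.02. The highest member level over the lowest was 34.4 as deposited and 32.3 per coding transcript in parental cells. Depth limits a single gene's log2 ratio to 0.03 to 0.21 either side, and the spread between cultures is unknown.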

Other observations

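The table also held 22 pseudogene rows named after these genes, with 941 parental and 967 resistant counts, and 3 of them reached 1 FPKM. MRPS31P5 had 508 and 555 counts, MRPS31P4 had 211 and 156, and MRPL3P1 had 58 and 80. They are named as copies of MRPS31 and MRPL3, and how reads matching a gene and its copy were assigned is not given in the sources used here. MRPL20-DT, a non-coding RNA that starts next to MRPL20, had 133 parental and 308 resistant counts, a ratio of counts per library total of 2.28 (95% counting interval 1.86 to 2.82), while MRPL20 itself was at 25.6 and 25.9 FPKM. MRPS30-DT, its like beside MRPS30, had 114 and 154 counts, a ratio of 1.33 (1.04 to 1.71). Both were named after their values were seen.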
